A study of Rattus norvegicus with 4 samples.

Results

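Prefoldin and the tubulin folding cofactors act before and after the chaperonin CCT, which folds newly made tubulin and actin. Prefoldin delivers both clients to CCT, and the cofactors act on tubulin alone. The genes were chosen by name, with the differences in their FPKM between these same libraries already known, so their levels below are a description and carry no test. Of 10 names in the choice, 9 were found among the 18755 genes listed: 5 prefoldin subunits (Pfdn1, Pfdn2, Pfdn4, Pfdn5 and Pfdn6), 3 cofactors (Tbca, Tbcb and Tbcd) and Tcp1, a subunit of the chaperonin CCT. Vbp1, a further prefoldin subunit, was not analysed here. The RNA came from primary cerebral cortex cells of embryonic day 16 (E16) SD rats, grown for 24 h on one of 4 hydrogels in 6-well plates, in Neurobasal medium with 2% B27 and 1% PS. The stated aim was to learn how a cue for adhesion between cells, built into a hydrogel, acts on neural growth. The hydrogels are named NL-SFMA, L-SFMA, N-SFMA and SFMA (the treatment labels write the first pair NL@SFMA and L@SFMA), and the sources used here do not say what the letters stand for. SFMA, the hydrogel without an added letter, serves as the reference for the other 3, and all cells shared the same seeding density of 100000 per well. Each hydrogel gave 1 library, from 5 parallel wells whose pooling is not described, so no difference could be set against a spread between replicates.

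Tubulin does not fold on its own. Prefoldin, a jellyfish-shaped complex of alpha-type and beta-type subunits, catches the unfolded chain as it leaves the ribosome and hands it to CCT, a double-ring chaperonin that folds tubulin and actin inside its cavity. Released alpha-tubulin is then bound by TBCB and passed to TBCE, released beta-tubulin is bound by TBCA and passed to TBCD, and TBCC joins these into a complex from which the dimer leaves, with the small GTPase ARL2 taking part. A growing cortical neuron, whose neurites are built on microtubules, makes large amounts of these clients.

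On NL-SFMA, 7 of the 9 genes were at least 1.5-fold lower than on SFMA: all 5 measured prefoldin subunits, Tbca and Tbcb. Tbcd was at least 1.5-fold higher, and Tcp1 was at nearly the same level in both libraries. On this scale, the log2 difference of FPKM (reads scaled to the length of the gene model and to the summed reads of the library) after adding a pseudocount of 1 FPKM, 29.3% of the 12394 tested genes were at least 1.5-fold lower on NL-SFMA and 21.6% at least 1.5-fold higher. The median difference of the 9 genes was -1.34, against -0.10 over all tested genes. All 9 genes passed the filter on low values, which kept genes reaching 1 FPKM in any library. These shares and medians are printed as background only, because the genes were chosen with this contrast in view.

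Stretches of promoter are shown for 4 genes that mark the ends of this pattern: Pfdn2 and Pfdn6, the prefoldin subunits with the lowest ratios on NL-SFMA, Tbca, the lowest of the 3 chosen cofactors, and Tbcd, the one of the 3 that was higher. Each runs from 120 bases before to 30 bases after the annotated start, 5′ to 3′ on the strand of the gene, from RefSeq (build GRCr8), and capitals mark the motifs named below, read in reverse complement where they lie on the other strand (both matches in Pfdn6).
Pfdn2, chr13:86305708-86305857, plus strand: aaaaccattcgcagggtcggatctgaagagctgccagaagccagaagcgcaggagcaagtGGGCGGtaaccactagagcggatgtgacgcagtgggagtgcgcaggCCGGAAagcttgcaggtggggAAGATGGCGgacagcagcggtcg
Pfdn6, chr20:4947724-4947873, plus strand: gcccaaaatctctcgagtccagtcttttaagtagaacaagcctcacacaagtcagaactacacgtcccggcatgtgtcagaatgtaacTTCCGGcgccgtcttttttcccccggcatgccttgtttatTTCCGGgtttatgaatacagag
Tbca, chr2:27746413-27746562, plus strand: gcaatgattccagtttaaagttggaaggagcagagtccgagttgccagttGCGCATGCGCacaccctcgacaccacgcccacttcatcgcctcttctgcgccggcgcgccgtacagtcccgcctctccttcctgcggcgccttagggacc
Tbcd, chr10:107215547-107215696, plus strand: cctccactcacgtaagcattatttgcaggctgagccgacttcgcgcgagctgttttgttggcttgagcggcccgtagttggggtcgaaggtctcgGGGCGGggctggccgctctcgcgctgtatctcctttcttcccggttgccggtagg

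The motifs were searched on both strands of the whole 300-base promoters, which RefSeq gives for all 9 genes. The core of the ETS factor motif, CCGGAA, stood in 4 of the 9 (Pfdn1, Pfdn2, Pfdn6 and Tcp1), where 15% of 33469 promoters of the same length hold it. The YY1 core AAGATGGCG stood just after the start of Pfdn2 and Pfdn4, against 1.73% of all promoters. Tbca held the NRF1 letters GCGCATGC on both strands in one overlapping palindrome, against 2.47% of all promoters. The GC box GGGCGG was found in 4 (Pfdn2, Tbcb, Tbcd and Tcp1) against 33.1% of all, and CCAAT in 4 (Pfdn1, Pfdn4, Tbcb and Tbcd) against 37.5%. GAANNTTC, a pair of heat shock element units, was found in Tbcd alone of the 9, against 8.59% of all promoters, and neither TATAAA (14.2% of all) nor TGACGTCA (1.83% of all) in any. No motif was common to the genes that were lower on NL-SFMA. A match of letters is a description and not a site.

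Among the prefoldin subunits, Pfdn2 and Pfdn6 were the lowest on NL-SFMA relative to SFMA. Pfdn2, a beta-type subunit that also belongs to a prefoldin-like complex with URI, was at 2.44 FPKM on NL-SFMA, 8.22 on L-SFMA, 8.58 on N-SFMA and 13.3 on SFMA. Its NL-SFMA value stood far below the other 3, while those of L-SFMA and N-SFMA lay close together. The ratio of CPM (reads scaled to the summed reads of the library alone, without a pseudocount) was 0.184 for NL-SFMA over SFMA, with a 95% counting interval of 0.161 to 0.210. Pfdn6, another beta-type subunit shared with the URI complex, was at 0.720 FPKM on NL-SFMA, 8.74 on L-SFMA, 4.52 on N-SFMA and 11.2 on SFMA. These are 6, 84, 41 and 116 reads in the same order, the fewest of the 9 genes, and the ratio of 0.0641 for NL-SFMA over SFMA had a wide interval of 0.0230 to 0.144. The interval of Pfdn6 on L-SFMA over SFMA, 0.580 to 1.04 around 0.778, included equality.

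Pfdn1 and Pfdn5 were lower in the same order of libraries. Pfdn5, an alpha-type subunit also known as a MYC-binding protein, had the highest FPKM of the measured prefoldin subunits. It was at 31.2 FPKM on NL-SFMA, 59.0 on L-SFMA, 71.5 on N-SFMA and 95.7 on SFMA. In CPM, which does not use length, Pfdn5 was at 109 on SFMA and Pfdn2 at 103. Pfdn1, a beta-type subunit, was at 13.5, 26.4 and 29.0 FPKM on NL-SFMA, L-SFMA and N-SFMA and at 35.9 FPKM on SFMA. For both genes NL-SFMA was the lowest library and SFMA the highest. The NL-SFMA over SFMA ratios were 0.326 (0.295 to 0.360) for Pfdn5 and 0.378 (0.339 to 0.420) for Pfdn1.

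Pfdn4 was the exception among the prefoldin subunits. This beta-type subunit was at 27.3 FPKM on NL-SFMA, 24.6 on L-SFMA, 28.6 on N-SFMA and 52.8 on SFMA. SFMA stood apart as high, and the other 3 libraries lay within a narrow range. Its ratios over SFMA were 0.516 (0.459 to 0.579) for NL-SFMA, 0.466 (0.415 to 0.522) for L-SFMA and 0.543 (0.485 to 0.606) for N-SFMA. NL-SFMA over N-SFMA was 0.951 (0.832 to 1.09) and over L-SFMA 1.11 (0.966 to 1.27), intervals that include equality.

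**Figure D1:**
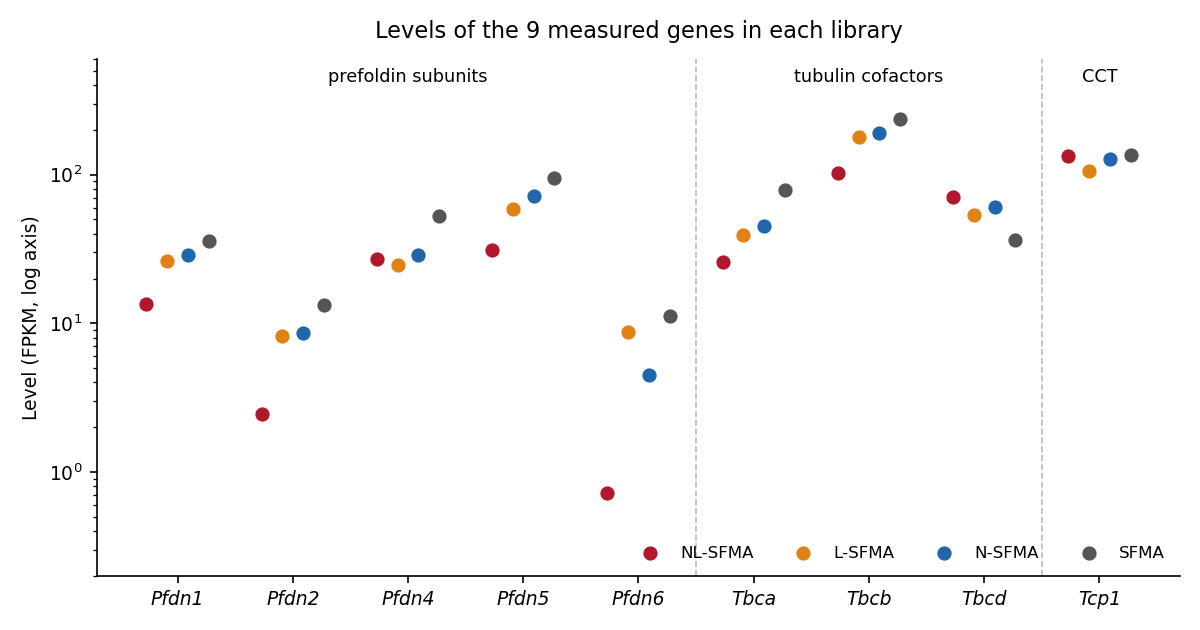
Level of each of the 9 measured genes (FPKM, log axis) in the NL-SFMA, L-SFMA, N-SFMA and SFMA libraries, 1 point per library, with prefoldin subunits, tubulin cofactors and the CCT subunit Tcp1 separated by dashed lines. SFMA is the highest library for all 5 prefoldin subunits, Tbca and Tbcb, and the lowest for Tbcd, at 36.2 FPKM.

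Because the subunits of prefoldin assemble in fixed proportion, the summed FPKM and the share of each subunit were also compared. The 5 measured subunits summed to 75.2 FPKM on NL-SFMA, 127 on L-SFMA, 142 on N-SFMA and 209 on SFMA. Pfdn4 made up 36.3% of that sum on NL-SFMA, 19.4% on L-SFMA, 20.1% on N-SFMA and 25.3% on SFMA. Pfdn2 made up 3.25% on NL-SFMA, against 6.47%, 6.03% and 6.35% on L-SFMA, N-SFMA and SFMA. Pfdn6 made up 0.958% on NL-SFMA, 6.89% on L-SFMA, 3.18% on N-SFMA and 5.38% on SFMA. Pfdn5 held the largest share in every library, between 41.5% and 50.3%. The mix of subunit transcripts on NL-SFMA therefore had more Pfdn4 and less Pfdn2 and Pfdn6 than in the other 3 libraries.

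The 3 cofactors did not move together. Tbca, which holds beta-tubulin, was at 25.8 FPKM on NL-SFMA, 39.0 on L-SFMA, 45.3 on N-SFMA and 78.4 on SFMA. The SFMA value was well above the rest, and the ratios over it were 0.329 (0.304 to 0.356), 0.497 (0.466 to 0.530) and 0.578 (0.543 to 0.615) for NL-SFMA, L-SFMA and N-SFMA. Tbcb, which binds alpha-tubulin through its CAP-Gly domain, was the most abundant of the 9 genes on SFMA. It was at 103 FPKM on NL-SFMA, 179 on L-SFMA, 190 on N-SFMA and 237 on SFMA, with L-SFMA and N-SFMA close to each other. Its NL-SFMA over SFMA ratio was 0.434 (0.410 to 0.460).

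Tbcd ran the other way. This cofactor, which takes beta-tubulin over from TBCA and can also take a tubulin dimer apart, was at 71.0 FPKM on NL-SFMA, 53.6 on L-SFMA, 60.3 on N-SFMA and 36.2 on SFMA. Every modified hydrogel lay above SFMA, with ratios of 1.96 (1.87 to 2.06), 1.48 (1.41 to 1.56) and 1.67 (1.58 to 1.75) in the same order. The level of Tbcd relative to Tbca, both in FPKM, was 2.75 on NL-SFMA, 1.37 on L-SFMA, 1.33 on N-SFMA and 0.462 on SFMA. Tbcb relative to Tbcd was 1.45 on NL-SFMA, 3.33 on L-SFMA, 3.16 on N-SFMA and 6.55 on SFMA.

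Tcp1, the CCT subunit alpha, was at 134 FPKM on NL-SFMA, 106 on L-SFMA, 127 on N-SFMA and 135 on SFMA. NL-SFMA and SFMA did not differ beyond counting error (ratio 0.994, 0.955 to 1.03), and L-SFMA was the low library (ratio 0.783, 0.752 to 0.816). The sign of the NL-SFMA difference for Tcp1 depends on the scaling of the libraries, so no direction is read from it.

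**Figure D2:**
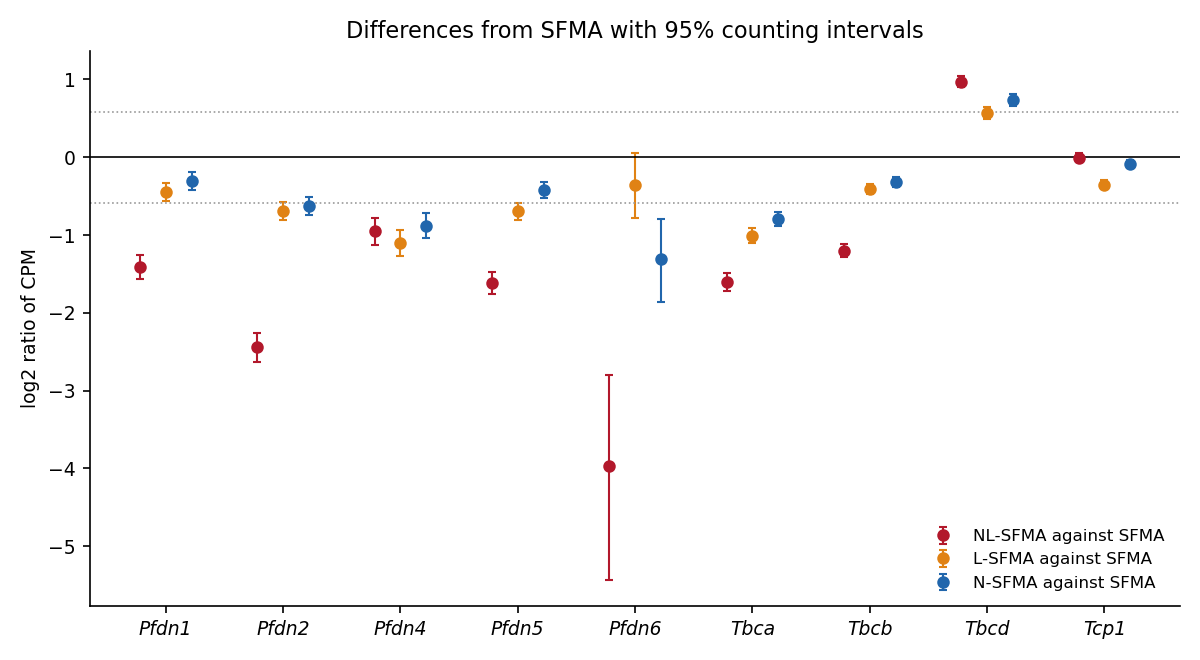
The log2 ratio of CPM of NL-SFMA, L-SFMA and N-SFMA over SFMA for each gene, 1 point per comparison, with bars for the 95% counting interval and dotted lines at 1.5-fold. The widest bar is that of Pfdn6 on NL-SFMA, which rests on 6 reads, and Tbcd is the only gene whose 3 points all lie above 0.

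On the hydrogels with a single letter the differences from SFMA were smaller for most genes. On L-SFMA, 4 of the 9 genes were at least 1.5-fold lower, with log2 differences of -1.07 for Pfdn4, -0.99 for Tbca, -0.69 for Pfdn5 and -0.63 for Pfdn2, where 11.1% of all tested genes were lower by as much. None was higher by as much, where 14.8% of all tested genes were. On N-SFMA, 3 were at least 1.5-fold lower, at -1.15 for Pfdn6, -0.86 for Pfdn4 and -0.78 for Tbca, and Tbcd was higher at 0.72. Over all tested genes 10.7% were lower and 7.24% higher on N-SFMA. Pfdn4 and Tbca were thus past 1.5-fold on each of the 3 hydrogels on this scale. Pfdn2 on N-SFMA was at -0.575, just short of the threshold. Its ratio of CPM there, without a pseudocount, was 0.646 (0.598 to 0.698) and past 1.5-fold. With a pseudocount of 0.1 FPKM the count of lower genes on N-SFMA was 4. The 3 comparisons share the SFMA library. An unusual value of SFMA alone would therefore enter all of them.

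NL-SFMA was also set against each hydrogel with a single letter, which leaves SFMA out. Against N-SFMA, 6 of the 9 genes were at least 1.5-fold lower, with log2 differences of -1.68 for Pfdn6, -1.48 for Pfdn2, -1.17 for Pfdn5, -1.04 for Pfdn1, -0.88 for Tbcb and -0.79 for Tbca. The share over all tested genes was 18%. Against L-SFMA, 5 were lower, at -2.50 for Pfdn6, -1.42 for Pfdn2, -0.91 for Pfdn1, -0.90 for Pfdn5 and -0.79 for Tbcb, where 20.9% of all tested genes were. Tbca was at -0.58 there, short of the threshold on this scale, while its ratio of CPM, which has no pseudocount, was 0.662 (0.606 to 0.723) and past 1.5-fold. With a pseudocount of 0.1 FPKM the count against L-SFMA was 6.

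Reading the letters as separate additions, which assumes that each means the same in both names that hold it, the NL-SFMA value was compared with the sum of the N-SFMA and L-SFMA differences. On the log2 CPM scale, NL-SFMA lay below that sum by -1.12 (95% counting interval -1.34 to -0.90) for Pfdn2, -2.29 (-3.59 to -0.99) for Pfdn6, -0.65 (-0.85 to -0.46) for Pfdn1, -0.50 (-0.68 to -0.31) for Pfdn5, -0.48 (-0.59 to -0.37) for Tbcb and -0.33 (-0.43 to -0.23) for Tbcd. It lay above the sum by 1.03 (0.78 to 1.28) for Pfdn4, 0.43 (0.35 to 0.51) for Tcp1 and 0.19 (0.04 to 0.35) for Tbca. The subunits of prefoldin thus lay on both sides of the sum. With 1 library per hydrogel, these values have no check by replicates. They are given with scaling to the summed reads only and without a background over all genes, so a general offset is not removed. On the FPKM + 1 scale, the median difference from SFMA over all tested genes was -0.10 on NL-SFMA, 0.05 on L-SFMA and -0.02 on N-SFMA.

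Gene length moved with these differences. Short gene models tended to be lower and long ones higher on NL-SFMA: the median difference from SFMA was -0.89 for 889 genes under 1 kb, -0.70 for 2533 genes of 1 to 2 kb, -0.34 for 2863 genes of 2 to 3 kb, 0.10 for 3689 genes of 3 to 5 kb and 0.54 for 1770 genes of 5 to 8 kb. For 650 genes of 8 kb or more the median was 0.92. The models of Pfdn6 (588 bases), Pfdn4 (1077), Tbcb (1083) and Pfdn5 (1139) are short. Those of Tbca (2174), Tcp1 (2336) and Pfdn1 (2377) are intermediate, and those of Tbcd (4054) and Pfdn2 (7739) long. Between 2 and 3 kb 33.8% of tested genes were at least 1.5-fold lower on NL-SFMA, and between 1 and 2 kb 57%. What part of the differences goes with length for a reason of the libraries and what part with the cells was not tested.

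After subtraction of the trend with length, 5 of the 9 genes were at least 1.5-fold lower on NL-SFMA than on SFMA, where 18.9% of all tested genes were. The median of the 9 genes was then -0.75. The 5 were Pfdn2 (-2.75), Pfdn6 (-2.00), Tbca (-1.12), Pfdn1 (-0.99) and Pfdn5 (-0.75). Tbcd was higher by 0.79, where 19.1% of all tested genes were at least 1.5-fold higher. Tbcb at -0.34 and Pfdn4 at -0.07 were then within 1.5-fold, the trend itself being -0.85 at the length of Tbcb and -0.86 at that of Pfdn4. On L-SFMA, Pfdn2 (-1.19), Tbca (-0.86) and Pfdn4 (-0.63) were lower with the trend subtracted, against 7.44% of all tested genes. On N-SFMA, Pfdn2 (-0.92), Pfdn6 (-0.70) and Tbca (-0.62) were lower, against 6.78%, and Tbcd was higher by 0.62, against 5.79%. Tbca was past 1.5-fold in all 3 of these comparisons. Pfdn2 was too, but its values rest on its model of 7739 bases, which is long for this gene and at which the trend was 0.70 on NL-SFMA, 0.56 on L-SFMA and 0.34 on N-SFMA. With the trend taken instead at 1108 bases, the median model length of the other 4 measured prefoldin subunits (a choice made after seeing the data), Pfdn2 was at -1.20 on NL-SFMA, -0.20 on L-SFMA and -0.20 on N-SFMA, so that it was past 1.5-fold on NL-SFMA alone. Only the trend was changed there. The differences themselves still used the FPKM at 7739 bases, to which the pseudocount was added.

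The same subtraction, at each gene's own length, left 4 genes at least 1.5-fold lower on NL-SFMA than on N-SFMA (Pfdn2, Pfdn6, Pfdn1 and Pfdn5), where 11.8% of all tested genes were. Against L-SFMA it left 3 (Pfdn6, Pfdn2 and Pfdn1), where 12.9% were. With the trend taken at 1108 bases and its FPKM unchanged, Pfdn2 was at -1.02 against N-SFMA and -1.01 against L-SFMA, still past 1.5-fold. Tcp1 was then higher by 0.60 on NL-SFMA than on L-SFMA, as were 11% of all tested genes.

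**Figure D3:**
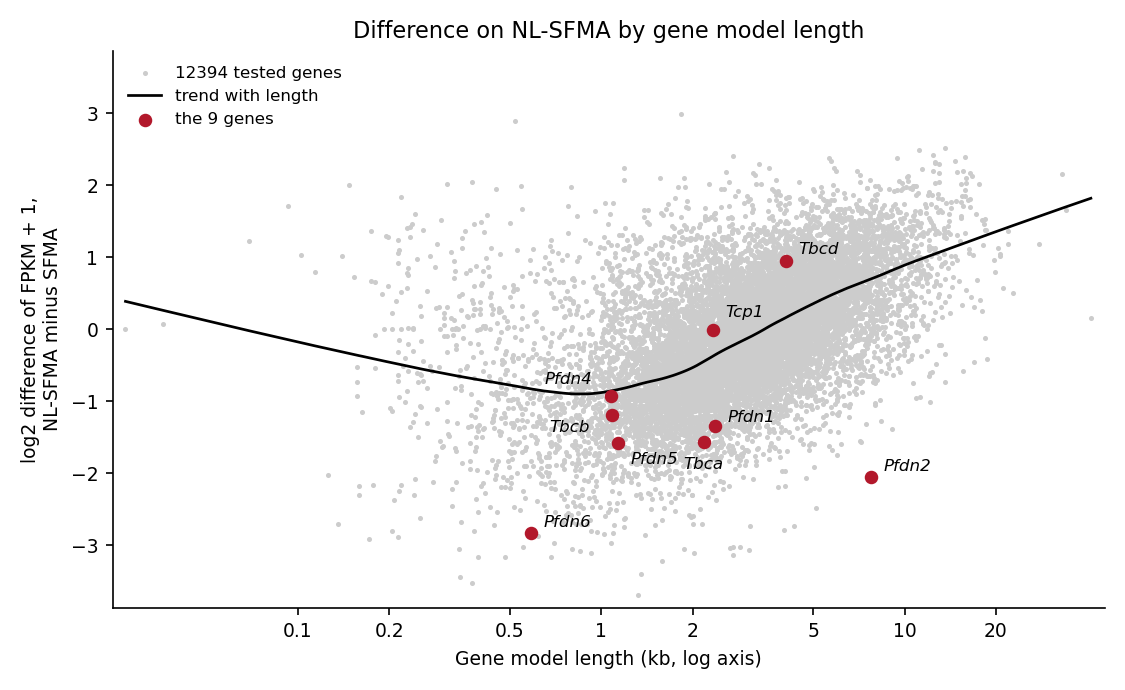
The log2 difference of FPKM + 1, NL-SFMA minus SFMA, against gene model length (kb, log axis) for the 12394 tested genes in grey, with the fitted trend as a black line and the 9 genes in red. Pfdn4 lies on the trend, Tbcd above it, and Pfdn2, with a model of 7739 bases and a difference of -2.05, farthest below it among the 9.

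Some identities limit these values. The model of Pfdn2 in the files is the longest of the 9, and in RefSeq (GRCr8) the gene overlaps Nit1 and Klhdc9. Its FPKM depends on that model length, while its ratios of CPM between libraries do not. The prefoldin sum, the share of each subunit in it and its ratios to CCT and tubulin therefore depend on that length too. Klhdc9 was at 6.28 FPKM on NL-SFMA, 6.70 on L-SFMA, 7.91 on N-SFMA and 7.89 on SFMA, and Nit1 at 0.595, 0.894, 1.31 and 1.12 FPKM. Tbcd overlaps Znf750 and B3gntl1, and Tcp1 overlaps Acat2l1 and 2 snoRNA genes. Of these, B3gntl1 was at most 1.06 FPKM, Acat2l1 at most 0.275 FPKM and Znf750 at most 0.0195 FPKM in any library. The sources used here do not give the strand setting of the counting, so reads of overlapping genes cannot be told apart. RefSeq also lists a pseudogene by name for Pfdn1, Pfdn2, Pfdn6 and Tcp1, none of which has a row of its own in the files, and reads could be shared with these copies.

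The other genes of the pathway are given from lists chosen by function. The remaining subunits of CCT stayed close to SFMA. Of 8 named, 7 were tested, and on NL-SFMA only Cct7 was at least 1.5-fold lower, at 131 FPKM against 217 FPKM on SFMA (log2 difference -0.73). With the length trend subtracted Cct7 was at -0.47 and within 1.5-fold. The highest was Cct4 at 198 FPKM on NL-SFMA and 155 FPKM on SFMA (0.35), and the median of the 7 was -0.01. No CCT subunit of the list passed 1.5-fold on L-SFMA (median -0.23) or N-SFMA (median 0.04). The 8 tested CCT subunits, Tcp1 included, summed to 1540.2 FPKM on NL-SFMA, 1310.2 on L-SFMA, 1591 on N-SFMA and 1595 on SFMA. The summed prefoldin level was 4.88% of the CCT sum on NL-SFMA, 9.69% on L-SFMA, 8.94% on N-SFMA and 13.1% on SFMA. These sums are not corrected for length. Pfdn4 and Pfdn5 carry most of the prefoldin sum, and the trend on NL-SFMA was -0.86 and -0.84 at their lengths. With the trend subtracted, the median NL-SFMA difference was -0.99 for the 5 prefoldin subunits, against -1.59 as measured. For the 7 other CCT subunits it was 0.23, against -0.01. Of the phosducin-like proteins, which bind CCT and modulate its folding, 3 of 4 were found and none passed 1.5-fold on any of the 3 hydrogels, with Pdcl3 at -0.35 and Txndc9 at 0.24 on NL-SFMA.

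Among 6 other tubulin cofactors and regulators, 2 were at least 1.5-fold lower and 1 higher on NL-SFMA, shares near the 29.3% and 21.6% of all tested genes. Tbcc, the cofactor that brings about release of the dimer, was at 15.3 FPKM on NL-SFMA, 47.2 on L-SFMA, 45.1 on N-SFMA and 63.9 on SFMA. Arl2, the GTPase that works with TBCD and TBCE, was at 8.66 FPKM on NL-SFMA, 21.1 on L-SFMA, 19.7 on N-SFMA and 32.1 on SFMA. NL-SFMA was the low library for both. Their ratios of CPM over SFMA were 0.239 (0.208 to 0.273) for Tbcc and 0.270 (0.237 to 0.307) for Arl2, and both remained at least 1.5-fold lower with the length trend subtracted (-1.17 and -1.41). Rp2, a relative of TBCC that acts on ARL3, was higher (0.88), while Tbce was at 0.11 and Tbcel, a TBCE-like protein, at 0.47. The order of cofactor genes on NL-SFMA relative to SFMA was thus Tbcc, Tbca and Tbcb below, Tbce near 0 and Tbcd above. With the length trend subtracted the order was the same, but Tbcb was at -0.34, within 1.5-fold, and Tbce at 0.37.

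Prefoldin-like proteins and partners of the R2TP complex, in which PFDN2 and PFDN6 also sit, had 7 of 8 members tested. On NL-SFMA 5 of them were at least 1.5-fold lower and 1 higher, with a median of -0.82, where 29.3% of all tested genes were lower and 21.6% higher. Polr2e, an RNA polymerase subunit that binds URI, was the lowest (-2.29, with a ratio of CPM of 0.199, 0.181 to 0.217), followed by the ATPases Ruvbl1 (-1.18) and Ruvbl2 (-1.08). Uri1 itself, with a model of over 10 kb in these files, was higher (0.63). With the length trend subtracted, 2 of the 7 were lower and none higher, and the median was -0.27, where 18.9% of all tested genes were lower. On L-SFMA 2 and on N-SFMA 1 of the 7 were at least 1.5-fold lower, against 11.1% and 10.7% of all tested genes.

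The clients were set beside their chaperones. Of 15 alpha- and beta-tubulin names, 13 were found. Tuba1b and Tuba3a were not found under those names and are missing from the sums. The tubulins found summed to 7123 FPKM on NL-SFMA, 6788 on L-SFMA, 8941 on N-SFMA and 7660 on SFMA. For each 1000 FPKM of these tubulins there were 10.6 FPKM of prefoldin on NL-SFMA, 18.7 on L-SFMA, 15.9 on N-SFMA and 27.3 on SFMA. These values, too, are not corrected for the trend with length. Of 11 tested tubulin rows, 2 were at least 1.5-fold lower on NL-SFMA and 1 higher, shares below the 29.3% and 21.6% of all tested genes. Tubb6, a widely expressed beta-tubulin, was at 4.87 FPKM on NL-SFMA and 23.8 FPKM on SFMA, and Tubb2b, a beta-tubulin of young neurons, at 52.5 FPKM on NL-SFMA and 23.5 FPKM on SFMA. The other lower row, Tubb4b, was at 98.0 FPKM on NL-SFMA and 183 FPKM on SFMA (-0.90). With the length trend subtracted, 2 rows were lower and 2 higher, where 18.9% and 19.1% of all tested genes were. The lower rows were then Tubb6 and Tubb2a (-0.77), and Tubb4b, at -0.32, was within 1.5-fold. Tuba1a, the main alpha-tubulin of developing neurons, was at 2606 FPKM on NL-SFMA and 2394 FPKM on SFMA. Tubulin paralogs are alike in sequence, so reads may be shared between them. Of the gamma-, delta- and epsilon-tubulins, Tubg1 was at least 1.5-fold lower on NL-SFMA (-1.17) and the other 3 were not. With the length trend subtracted Tubg1 was at -0.54 and within 1.5-fold. The cytoplasmic actins Actb (-0.06) and Actg1 (-0.07), which are also folded by way of prefoldin and CCT, stayed close to SFMA.

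**Figure D4:**
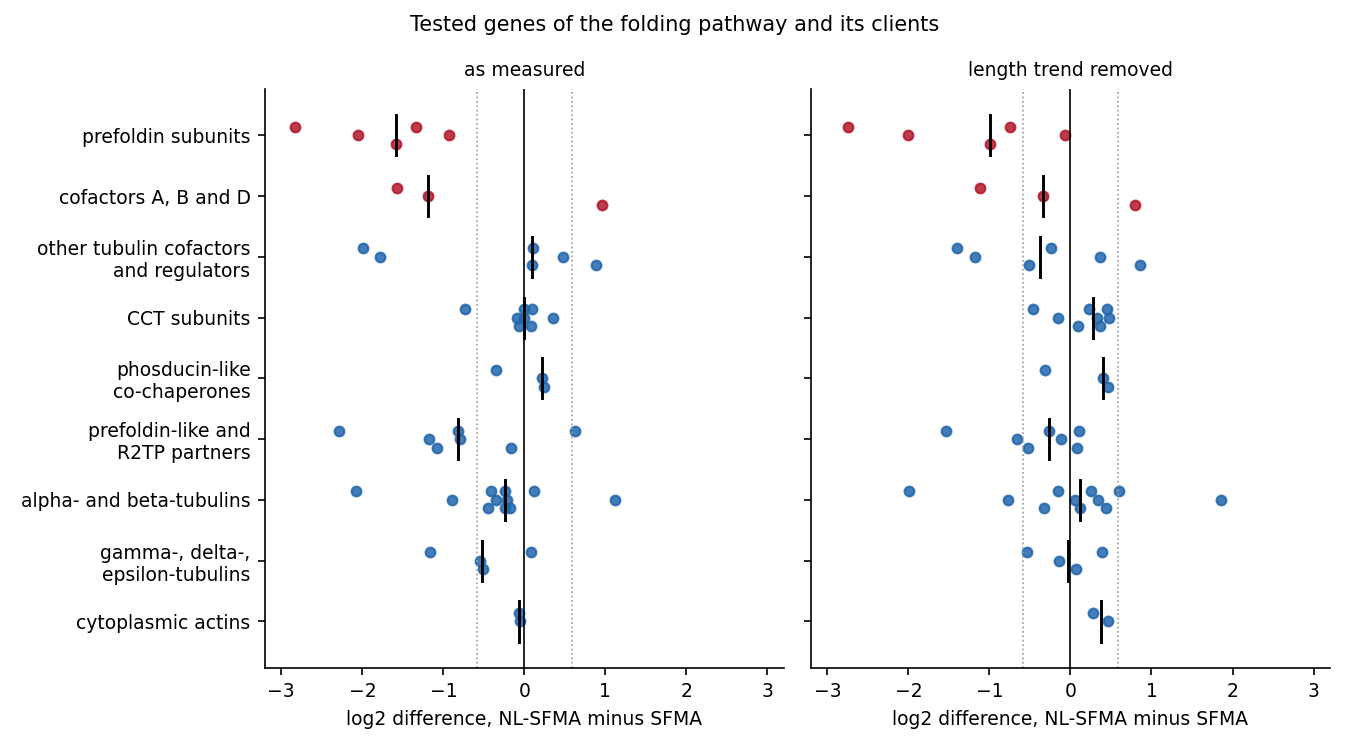
The log2 difference of FPKM + 1, NL-SFMA minus SFMA, for each tested gene of the folding pathway and its clients, as measured (left) and with the length trend removed (right), with red points for prefoldin and cofactors A, B and D, blue points for the other lists, black bars for medians and dotted lines at 1.5-fold. Prefoldin subunits lie left of 0 in both panels, and all CCT subunits lie within 1.5-fold except Cct7 in the left panel.

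**Figure D5:**
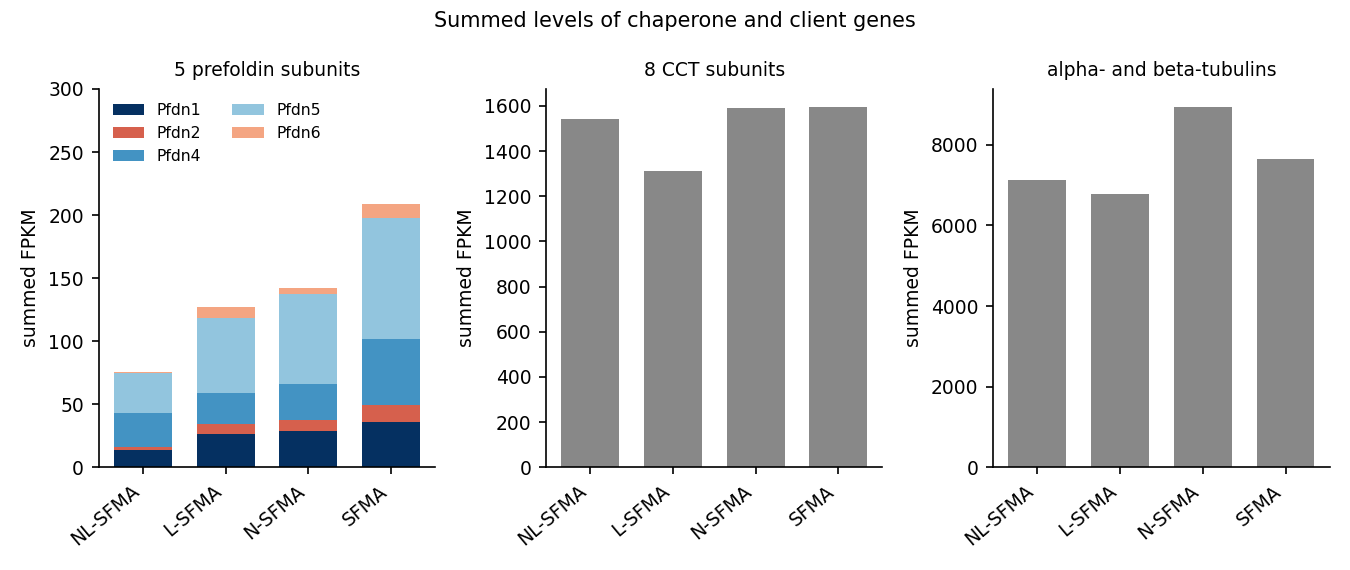
Summed FPKM in each library for the 5 measured prefoldin subunits (stacked by gene), 8 CCT subunits and the alpha- and beta-tubulins found. NL-SFMA, L-SFMA and N-SFMA stand left of SFMA. The prefoldin bars run from 75.2 FPKM on NL-SFMA to 209 FPKM on SFMA, while the CCT bars lie between 1310.2 and 1595 FPKM. The sums are not corrected for the trend with length, and that of prefoldin depends on the model length of Pfdn2.

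The genes outside the choice whose 3 differences from SFMA came nearest to the medians of the 9 genes (-1.34, -0.43 and -0.41 on NL-SFMA, L-SFMA and N-SFMA) were Fam162a, Atp6v1g1, Cyc1, R3hdm4 and Sdf2. Their distances, taken over the 3 log2 differences, were 0.042 to 0.056. Cyc1, the cytochrome c1 of the respiratory chain, was at 83.0 FPKM on NL-SFMA, 153 on L-SFMA, 160 on N-SFMA and 214 on SFMA. Atp6v1g1, a subunit of the vacuolar proton pump, was at 27.8, 54.5 and 54.8 FPKM on the same 3 hydrogels and at 72.1 FPKM on SFMA.

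The libraries held 14172205 to 17553098 counted reads. Neuronal markers (6 of 6) summed to 2653 FPKM on NL-SFMA, 2784 on L-SFMA, 3506 on N-SFMA and 2579 on SFMA, and markers of cortical excitatory neurons (6 of 6) to 586, 652, 594 and 462 FPKM. Tubb3, at 1659 FPKM on NL-SFMA and 1882 FPKM on SFMA, carried most of the neuronal sum. Within that list Dcx was at 266 FPKM on NL-SFMA and 68.3 FPKM on SFMA, Map2 at 98.0 and 24.7 FPKM, and Rbfox3 at 18.1 and 25.7 FPKM. The models of Dcx (8857 bases) and Map2 (8285 bases) are long. With the length trend subtracted, their log2 differences were 1.15 and 1.19 in place of 1.95 and 1.94. That of Rbfox3 was -0.31 in place of -0.48. Of the excitatory markers, Neurod2 (124 against 137 FPKM) and Slc17a7 (18.5 against 23.7 FPKM) were lower on NL-SFMA than on SFMA. The rest of that list was higher. All 6 markers of each list reached 1 FPKM in some library. The marker sums of other cell types also differed between libraries. The 6 radial glia markers summed to 738 FPKM on NL-SFMA, 640 on L-SFMA, 656 on N-SFMA and 1480.5 on SFMA, 4 of 5 erythroid markers to 69.6, 90.7, 161 and 545 FPKM, and 5 of 6 microglial markers to 5.62, 14.8, 7.47 and 21.2 FPKM. Vim and Fabp7 carried most of the radial glia sum, while Hes5 was highest on L-SFMA, at 18.0 FPKM against 10.5 FPKM on SFMA. All 6 of the radial glia and all 4 of the erythroid markers reached 1 FPKM in some library, as did all but 2 of the microglial ones, of which C1qa had no read on NL-SFMA. Interneuron markers (5 of 5) summed to 74.3 FPKM on NL-SFMA, 114 on L-SFMA, 112 on N-SFMA and 113 on SFMA. Dlx1, Dlx2 and Gad2 were lower on NL-SFMA than on SFMA. Gad1 (8.14 against 6.55 FPKM) and Lhx6 (8.66 against 7.79 FPKM) were higher. Oligodendrocyte lineage markers (4 of 4) summed to 3.03, 5.45, 4.92 and 12.1 FPKM in the same order of libraries. Astrocyte (3 markers), endothelial (3 markers) and fibroblast (4 markers) sums were at most 3.54, 0.628 and 1.43 FPKM. SFMA, the high library for prefoldin, Tbca and Tbcb, was thus also the high library for radial glia, erythroid and microglial markers, and their part in the differences was not tested. Mitochondrially encoded genes took 5.89% of the reads on NL-SFMA, 2.33% on L-SFMA, 2.23% on N-SFMA and 2.68% on SFMA. In bulk RNA, fewer cells of a type and less RNA per cell cannot be told apart.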

How the data were processed

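Poly(A) RNA of 4 cultures, 1 library per hydrogel, was sequenced after NEBNext Ultra library preparation, per the labels. The authors deposited raw read counts per gene and FPKM values per gene. HISAT2 (no version named), HTSeq 0.13.5 and the builds mRatBN7.2 and GRCh38 are named in the submitters' processing notes without a role. Their settings and filters do not appear in the sources used here. Dividing deposited count by FPKM gave 1 whole gene model length per gene, within 0.001 bases, in all 4 files.

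From these values, log2 differences of FPKM + 1 were taken for genes with at least 1 FPKM in 1 of the 4 libraries, and 1.5-fold was the size that counted. No p-value is given, since each hydrogel has 1 library. Ratios of CPM carry exact conditional (Clopper-Pearson) 95% intervals, and departures from the sum of single differences carry normal intervals. Both cover counting error only, since they are computed from the read counts of single libraries. No molecular identifiers were used to tell PCR copies apart, as far as the labels say, so the intervals may be too narrow. The trend with log2 length was fitted by lowess over all tested genes (span 0.3, statsmodels 0.14.6). TMM factors came from edgeR 4.0.16. The calculation was tested on simulated data.

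The genes and lists were chosen with earlier results of these data known. Named genes were the 9 found, the up to 3 lowest and 3 highest of each other list on NL-SFMA against SFMA, and the 5 genes nearest in pattern. Genes given for their overlap with the 9, and single cell type markers, were added after the data were seen. Promoters are from RefSeq.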

Additional observations from a re-analysis of the deposited data

Results flagged for a closer look

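Tcp1, the CCT subunit alpha, moved in opposite directions with a letter depending on whether the other letter was present, each ratio having a counting interval that leaves out equality. The ratio of CPM was 0.941 for N-SFMA over SFMA and 1.27 for NL-SFMA over L-SFMA. It was 0.783 for L-SFMA over SFMA and 1.06 for NL-SFMA over N-SFMA. The difference between these directions was not tested, each hydrogel having 1 library. With the length trend removed, the log2 difference of N-SFMA from SFMA for Tcp1 was 0.04 in place of -0.09. The same value of NL-SFMA enters both pairs, and that of SFMA too. The log2 differences of Cct2 and Cct6a changed sign in the same way. For Cct2 they were -0.11 (N-SFMA against SFMA) and 0.32 (NL-SFMA against L-SFMA), then -0.39 (L-SFMA against SFMA) and 0.04 (NL-SFMA against N-SFMA). For Cct6a they were -0.05 and 0.32, then -0.22 and 0.15, in the same order. Cct3, Cct4, Cct5, Cct7 and Cct8 did not change sign in both pairs. With the length trend removed, N-SFMA against SFMA was 0.08 for Cct2 and 0.02 for Cct6a. As for Tcp1, this was then the sign of NL-SFMA against L-SFMA. L-SFMA against SFMA and NL-SFMA against N-SFMA still had opposite signs in Tcp1, Cct2 and Cct6a.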

How the results depend on the processing

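Each count of genes at least 1.5-fold lower was recomputed under 9 alternatives: TMM, median-of-ratios and non-mitochondrial scaling, length trend removed, pseudocounts of 0.1 and 5 FPKM, no filter, a filter of 5 FPKM, and 2-fold in place of 1.5-fold. Of the 45 recomputed counts, 41 stayed within 1.5 times. At 2-fold, 1 gene was lower on L-SFMA than on SFMA (4 at 1.5-fold), 1 on N-SFMA than on SFMA (3 at 1.5-fold) and 2 on NL-SFMA than on L-SFMA (5 at 1.5-fold), where 3.04%, 2.65% and 6.87% of all tested genes were. Length trend removal left 3 lower on NL-SFMA than on L-SFMA. The 3 scalings left every count of the 9 genes as it was. For NL-SFMA against L-SFMA they moved the median of all tested genes, -0.13 as reported, to -0.02 (TMM) and 0.02 (median-of-ratios), and the share of lower among genes past 1.5-fold to 58.1%, 52.7% and 67.9% (without mitochondrial genes), against 74.3%. The median of the 9 genes was -0.79 there, and -0.66 and -0.62 under the first pair of scalings. Of 270 recomputed single differences under the first 6 of these alternatives, 261 kept their sign. Those that did not included Tbcb on L-SFMA (to 0.04) and N-SFMA (to 0.06) and Pfdn6 on L-SFMA (to 0.28), each with the length trend removed, and Tcp1 on NL-SFMA. No paired analysis was possible because each hydrogel has 1 library. Depth limits Pfdn6 most, at 6 reads on NL-SFMA.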
